A study of Mus musculus with 13 samples.

Results

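The genes described here are 36 genes of mitotic entry, the spindle and cytokinesis, measured in primary mouse embryonic fibroblasts held at 32°C or 37°C. They were chosen by name for their role in cell division, with earlier results of these data known. For each gene the transcript cluster (the array's unit for 1 gene) with the highest mean over all arrays was taken. All 36 were measured, out of 19938 genes tested. By role, 13 were kinases, cyclins and checkpoint proteins, 9 spindle motors and microtubule proteins, 6 kinetochore and centromere proteins, 5 proteins of chromosome structure and 3 proteins of cytokinesis.

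The fibroblasts were a commercial primary culture, grown at 37°C in high-glucose DMEM with 10% serum until the dishes were largely but not fully covered. The incubator was then lowered to 32°C (hypothermia) for 0.5, 1, 2, 4, 8 or 18 h, and a control arm stayed at 37°C (normothermia) for the same times. A single 0 h array, labelled normothermia, is the start of both series, so that 6 arrays are of cooled cells and 7 of cells kept warm. Every Affymetrix Mouse Gene 1.0 ST array was hybridised with a pool of RNA from 3 dishes, so each temperature and time has 1 array and no replicate. Values are log2 of the deposited intensity, and a difference of −1 on that scale is a level of 0.5 times the other.

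Genes of this kind are transcribed late in the cell cycle, so in a growing culture their RNA comes mainly from cells in G2 and mitosis. Cyclin-dependent kinase 1 with its cyclins drives entry into mitosis, kinesins and their partners build the spindle, the kinetochore ties chromosomes to it, condensins and topoisomerase compact and untangle the chromatids, and the central spindle and anillin direct the cleavage of the cell. Many of their promoters hold a short element, the cell cycle genes homology region, with the letters TTTGAA or TTTAAA, which binds complexes of the MuvB proteins, often near CCAAT boxes bound by NF-Y.

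These promoter stretches belong to genes of the set whose levels are given on every array, and they hold such letters close to the start of transcription. Among such genes, those shown had the lowest p for 18 h against earlier times in the cooled cells. Bub1b, Cdc20, Cenpa, Ect2 and Racgap1 also hold TTTGAA close to the start but are not shown. Each runs from 100 bases before the start to 50 bases after it, 5′ to 3′ on the gene's own strand, from RefSeq on build GRCm38.p6. Capitals mark TTTGAA or TTTAAA or CCAAT on either strand, so TTCAAA and ATTGG are the same letters read from the other strand.
Hmmr, chr11:40733388-40733537, minus strand: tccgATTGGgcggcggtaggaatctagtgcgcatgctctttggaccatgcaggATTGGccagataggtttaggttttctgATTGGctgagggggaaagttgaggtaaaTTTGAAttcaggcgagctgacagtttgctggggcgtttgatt
Prc1, chr7:80294351-80294500, plus strand: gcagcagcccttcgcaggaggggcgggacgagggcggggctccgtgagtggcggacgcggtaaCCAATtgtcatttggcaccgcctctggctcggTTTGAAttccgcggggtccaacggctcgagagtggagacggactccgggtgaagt
Cenpe, chr3:135212463-135212612, plus strand: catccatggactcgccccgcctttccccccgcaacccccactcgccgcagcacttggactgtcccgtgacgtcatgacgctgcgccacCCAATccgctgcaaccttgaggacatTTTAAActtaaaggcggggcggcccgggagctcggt
Top2a, chr11:99024140-99024289, minus strand: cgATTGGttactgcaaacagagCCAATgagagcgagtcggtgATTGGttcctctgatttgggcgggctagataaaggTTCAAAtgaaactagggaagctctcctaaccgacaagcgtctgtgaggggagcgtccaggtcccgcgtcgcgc
Anln, chr9:22389157-22389306, minus strand: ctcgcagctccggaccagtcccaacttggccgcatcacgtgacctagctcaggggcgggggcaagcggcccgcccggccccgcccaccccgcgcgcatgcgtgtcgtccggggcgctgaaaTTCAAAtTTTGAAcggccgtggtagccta

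Counting the first base after the start as +1, TTTGAA began at +9 in Hmmr, at −5 in Prc1 and at −23 in Top2a, and twin matches on opposite strands began at +22 and +29 in Anln. Cenpe held TTTAAA at +15 in place of TTTGAA. A window of 250 bases before to 50 after the start was at hand for 30 of the 36 genes and for 27025 mouse genes in all. TTTGAA stood on either strand in 24 of the 30 windows (80.0%), against 18.1% of all genes with a window. Within 50 bases of the start, a distance chosen after the positions were seen, it stood in 22 of 30 (73.3%), against 4.92% of all genes. TTTAAA stood in 8 of 30 (26.7%, against 13.2%) and CCAAT in 23 of 30 (76.7%, against 37.9%). TTTGAA was held by 31 of 60 windows of other mitotic genes (51.7%) and by 6 of 40 windows of DNA replication genes (15.0%). These matches are a description of the letters, with no test.

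The 36 genes were measured well within the range of the arrays. Their mean log2 levels stood between the 56th and the 96th percentile of all genes, with Ttk lowest and Ccnb2 highest. The medians of the 13 arrays lay between 145 and 150 intensity units. Fibroblast markers were well expressed, with 12 of 12 above the median gene in their mean over the 13 arrays. Of 5 macrophage markers 1 lay above the median gene, of 4 endothelial markers 0, of 4 epithelial markers 1 and of 4 skeletal muscle markers 2. Summed over the list, fibroblast markers had 56082 intensity units at 18 h at 32°C (lowest of the arrays at 32°C, which reached up to 61143), against 60389 at 18 h at 37°C (59856 to 61289 over the 37°C arrays). Macrophage markers summed to 546 at 18 h at 32°C, the highest of 414 to 546 at that temperature, against 407 at 18 h at 37°C (388 to 425). Epithelial markers summed to 510 at 18 h at 32°C, the highest of 458 to 510 there, against 441 at 18 h at 37°C, the lowest of 441 to 475. Among the macrophage markers Cd68, a lysosomal protein of macrophages also found in fibroblasts, was 0.56 higher at 18 h than earlier at 32°C (limma, adjusted p = 0.00692). The part of these shifts in the results below was not tested.

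At 18 h at 32°C all 36 genes reached their lowest level of the 13 arrays. The mean change from 0 h over the 36 genes was −0.74 ± 0.23 (SD over genes) at 18 h at 32°C and −0.11 ± 0.09 at 18 h at 37°C. At 18 h the largest declines from 0 h left Hmmr at 0.429 of its 0 h intensity at 32°C, against 0.814 at 37°C, and Ncapg at 0.454, against 0.894. The smallest decline at 32°C was that of Cenpa, at 0.792 of its 0 h intensity, against 0.868 at 37°C. The array at 18 h at 32°C was the lowest of all 13 for 11.8% of all genes, and for 52 of 69 other mitotic genes (75.4%) and 41 of 51 DNA replication genes (80.4%). The gap to the next lowest array was narrow for Racgap1 (0.02), Cenpa (0.05) and Cdc20 (0.08) and widest for Hmmr (0.88). Since these are mixed cells, fewer dividing cells and less RNA in each of them cannot be told apart, and what belongs to 18 h at 32°C cannot be told apart from what belongs to that 1 array and its pooled dishes.

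**Figure D1:**
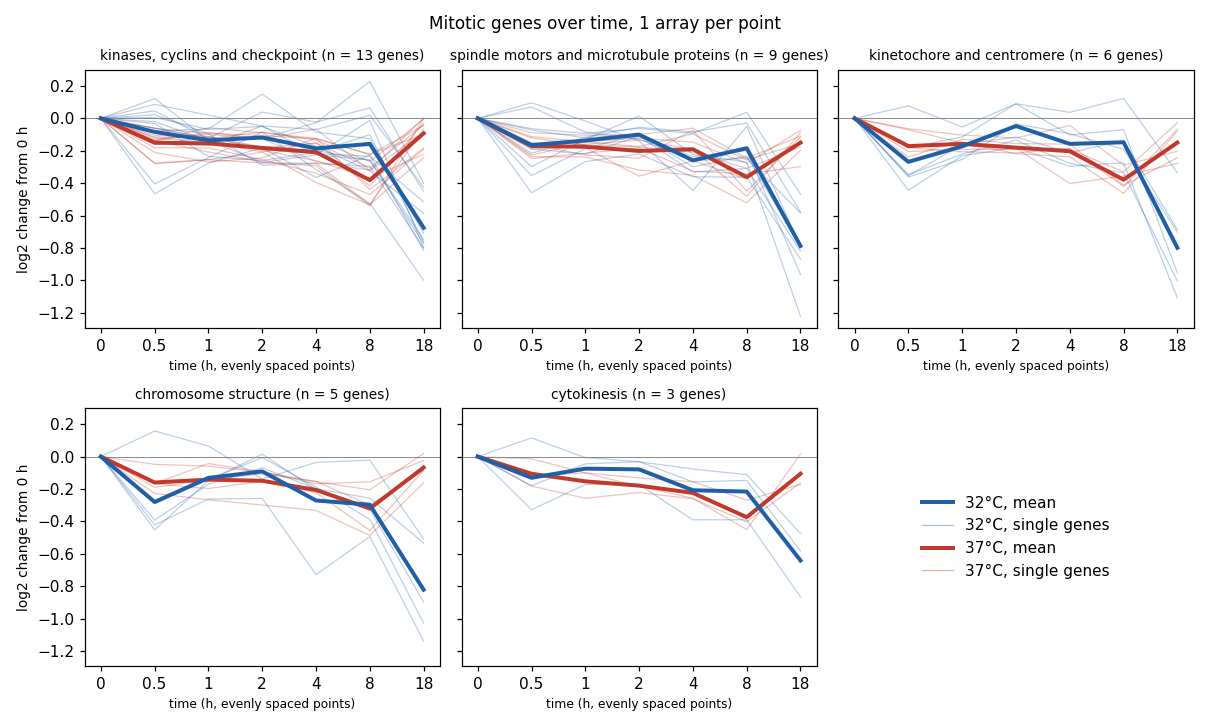
Log2 change from the shared 0 h array (y axis) at each time (x axis, evenly spaced, in h) for the genes of each role. Blue lines are 32°C and red lines 37°C, thin lines are single genes and thick lines their mean, with 1 array per point. The mean over all 36 genes ends at −0.74 at 32°C and at −0.11 at 37°C.

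Against the earlier times at its own temperature, the 18 h array at 32°C was lower for all 36 genes, and 18 of them passed the test (limma on all 13 arrays, Benjamini-Hochberg over all genes). The same call was made for 0.602% of all genes tested, and the estimate was below 0 for 9018 of all 19938. The median difference over the 36 genes was −0.58, from −1.04 for Hmmr to −0.32 for Smc4, against 0.02 over all genes. The 18 genes that missed the threshold had adjusted p from 0.0516 (Cdk1) to 0.154 (Smc4). The test sets 1 array against 5 arrays of different times and takes the lone array to vary as the earlier ones of both temperatures do. It depended on which earlier time was in the fit, as did the calls over all genes. Leaving out the 0.5 h arrays gave 10 calls, against 57 of all 19938 genes called lower. Leaving out 1 h gave 1 (10 of all genes), 2 h gave 3 (30), 4 h gave 5 (29) and 8 h gave 31 (380). With the spread taken from the 32°C arrays alone there were 0 calls, against 1 of all genes (limma, lowest adjusted p 0.124, 36 lower at an unadjusted p of 0.05). All 36 estimates stayed below 0 in each of these fits. That was fixed beforehand, as the 18 h array at 32°C was the lowest of all 13 for each of the 36 genes.

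The kinases, cyclins and checkpoint proteins had 4 of 13 called lower, namely Ccna2, Birc5, Plk1 and Aurka. Ccna2, the A-type cyclin of S phase and mitotic entry, had log2 levels of 11.26, 11.30, 11.24, 11.22, 11.15 and 10.64 at 0.5, 1, 2, 4, 8 and 18 h at 32°C. At 37°C its levels were 11.41, 11.30, 11.29, 11.23, 11.26, 11.11 and 11.38 at 0, 0.5, 1, 2, 4, 8 and 18 h. Its 18 h level at 32°C thus lay below every other array, and the difference from earlier times was −0.59 ± 0.09 (SE, adjusted p = 0.0183 by limma). Birc5, the survivin subunit of the chromosomal passenger complex, measured 8.71, 8.72, 8.94, 8.70, 8.66 and 8.08 at the same 6 times at 32°C and 8.79, 8.66, 8.69, 8.66, 8.52, 8.47 and 8.79 at 0 to 18 h at 37°C. It fell by 0.67 ± 0.12 (SE, limma adjusted p = 0.0233), and its 2 h array at 32°C was the highest of the 13. Plk1 (−0.69) and Aurka (−0.59), kinases of centrosome maturation and spindle assembly, had adjusted p of 0.0450 and 0.0486. Cdc20, the activator that turns the anaphase-promoting complex on, read 10.16, 9.99, 9.99, 10.09, 10.35 and 9.72 at 32°C from 0.5 to 18 h, against 10.12, 9.98, 10.03, 9.99, 10.05, 9.80 and 10.03 at 37°C from 0 to 18 h. Its 8 h array at 32°C was the highest and its 8 h array at 37°C the next to lowest, and its 18 h level at 32°C lay 0.08 below that 8 h array at 37°C. The test gave −0.40 ± 0.13 (SE, limma adjusted p = 0.147). The remaining 8 genes (Cdk1, Ccnb2, Bub1, Bub1b, Aurkb, Ttk, Mad2l1 and Ube2c) had estimates from −0.68 to −0.34.

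Spindle motors and microtubule proteins had 6 of 9 called lower, namely Hmmr, Prc1, Kif11, Kif23, Tpx2 and Dlgap5. Hmmr, a hyaluronan-mediated motility receptor that also binds spindle microtubules, stood at 8.63, 8.80, 8.95, 8.71, 8.66 and 7.71 from 0.5 to 18 h at 32°C. At 37°C it stood at 8.93, 8.69, 8.72, 8.75, 8.61, 8.59 and 8.63 from 0 to 18 h. No other array came near the 18 h value at 32°C, and the difference of −1.04 ± 0.13 (SE) had an adjusted p of 0.00554 by limma. It was called in 13 of 14 alternative fits. Prc1, which bundles the microtubules of the central spindle, gave 10.03, 9.99, 10.00, 9.81, 9.87 and 9.31 at 32°C and 10.11, 9.99, 9.96, 9.98, 9.96, 9.83 and 10.03 at 37°C in the same order of times. All arrays but the 18 h one at 32°C lay within 9.81 to 10.11, and the difference was −0.63 ± 0.10 (SE, limma adjusted p = 0.0195). Kif11, the motor that pushes spindle poles apart, fell by 0.75, Dlgap5 by 0.59, Kif23 by 0.48 and Tpx2 by 0.41. Kif20a, a kinesin of the central spindle, ran 10.70, 10.55, 10.50, 10.37, 10.38 and 10.05 at 32°C and 10.63, 10.51, 10.47, 10.45, 10.42, 10.32 and 10.45 at 37°C. Its levels were already lower at 4 and 8 h than at 0.5 h at both temperatures, and its 18 h difference of −0.45 ± 0.12 (SE) missed the threshold (limma adjusted p = 0.0856), as did those of Kif2c (−0.68) and Nusap1 (−0.54).

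Kinetochore and centromere proteins had 3 of 6 called lower, namely Cenpe, Nuf2 and Cenpf. Cenpe, a kinetochore motor that aligns chromosomes, had 8.70, 8.92, 8.97, 8.85, 8.87 and 8.04 at 0.5 to 18 h at 32°C and 9.15, 8.91, 9.02, 8.99, 8.99, 8.73 and 8.90 at 0 to 18 h at 37°C. Its 18 h level at 32°C lay apart from the others, which spanned 8.70 to 9.15, and it fell by 0.83 ± 0.12 (SE, limma adjusted p = 0.0133). For Nuf2, a subunit of the NDC80 complex that holds microtubules, the levels were 8.93, 8.99, 9.20, 9.01, 9.04 and 8.15 at 32°C and 9.11, 9.04, 8.96, 8.89, 8.87, 8.64 and 9.03 at 37°C. Its 2 h array at 32°C was the highest and the 18 h array the lowest, with a difference of −0.88 ± 0.14 (SE, limma adjusted p = 0.0162). Cenpf fell by 0.74, while the other NDC80 subunits Ndc80 (−0.49) and Spc25 (−0.52) missed the threshold. Cenpa, the histone that marks centromeres, had 10.16, 10.03, 10.18, 10.12, 10.21 and 9.75 at 32°C and 10.09, 10.02, 9.98, 9.96, 10.04, 9.80 and 9.88 at 37°C. Its 18 h level at 32°C lay just under that of 8 h at 37°C, and the estimate was −0.39 ± 0.10 (SE, limma adjusted p = 0.0712).

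Proteins of chromosome structure had 3 of 5 called lower, namely Top2a, Ncapd2 and Smc2. Top2a, the topoisomerase that untangles sister chromatids, measured 10.26, 10.41, 10.55, 10.36, 10.16 and 9.52 at 32°C from 0.5 to 18 h, and 10.55, 10.38, 10.36, 10.40, 10.33, 10.10 and 10.47 at 37°C from 0 to 18 h. Every other array exceeded its 18 h level at 32°C by at least 0.57, and it fell by 0.83 ± 0.14 (SE, limma adjusted p = 0.0233). Top2a was the only gene of the 36 with another transcript cluster, a dim one that read 5.08 at 18 h at 32°C and 4.29 at 18 h at 37°C and did not share the decline. With the mean of all transcript clusters of a gene, Top2a was not called and 17 of the 36 genes were (limma). The condensin subunit Ncapd2 had 9.12, 9.02, 8.82, 8.92, 8.94 and 8.45 at 32°C and 8.96, 8.91, 8.90, 8.86, 8.80, 8.75 and 8.98 at 37°C. It was highest at 0.5 h at 32°C and lowest at 18 h, a difference of −0.51 ± 0.10 (SE, limma adjusted p = 0.0364). Smc2, the condensin ATPase, fell by 0.67, and Ncapg (−0.71) missed the threshold. Its partner ATPase Smc4 had 10.19, 10.41, 10.51, 10.38, 10.32 and 10.05 at 32°C and 10.58, 10.41, 10.54, 10.49, 10.41, 10.42 and 10.56 at 37°C. At 32°C Smc4 was also low at 0.5 h, and its estimate of −0.32 ± 0.10 (SE, limma adjusted p = 0.154) was the smallest of the 36.

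Of the 3 genes of cytokinesis, Anln and Ect2 were called lower. Anln, the anillin scaffold of the cleavage furrow, had 10.69, 10.83, 10.84, 10.72, 10.73 and 10.29 at 32°C and 10.87, 10.75, 10.77, 10.74, 10.72, 10.60 and 10.70 at 37°C. Outside 18 h at 32°C its levels spanned only 10.60 to 10.87, and it fell by 0.47 ± 0.09 (SE, limma adjusted p = 0.0355). Ect2, the exchange factor that activates RhoA at the furrow, had 10.06, 10.22, 10.22, 10.00, 10.00 and 9.53 at 32°C and 10.39, 10.21, 10.14, 10.17, 10.13, 9.99 and 10.23 at 37°C. Its highest array was 0 h and its lowest 18 h at 32°C, with a difference of −0.58 ± 0.12 (SE, limma adjusted p = 0.0486). Racgap1, which forms the centralspindlin complex with Kif23, had 10.29, 10.17, 10.14, 10.10, 10.06 and 9.70 at 32°C and 10.17, 10.16, 10.07, 9.99, 9.92, 9.72 and 10.19 at 37°C. Its 8 h array at 37°C was almost as low as its 18 h array at 32°C, and the test gave −0.45 ± 0.14 (SE, limma adjusted p = 0.126).

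**Figure D2:**
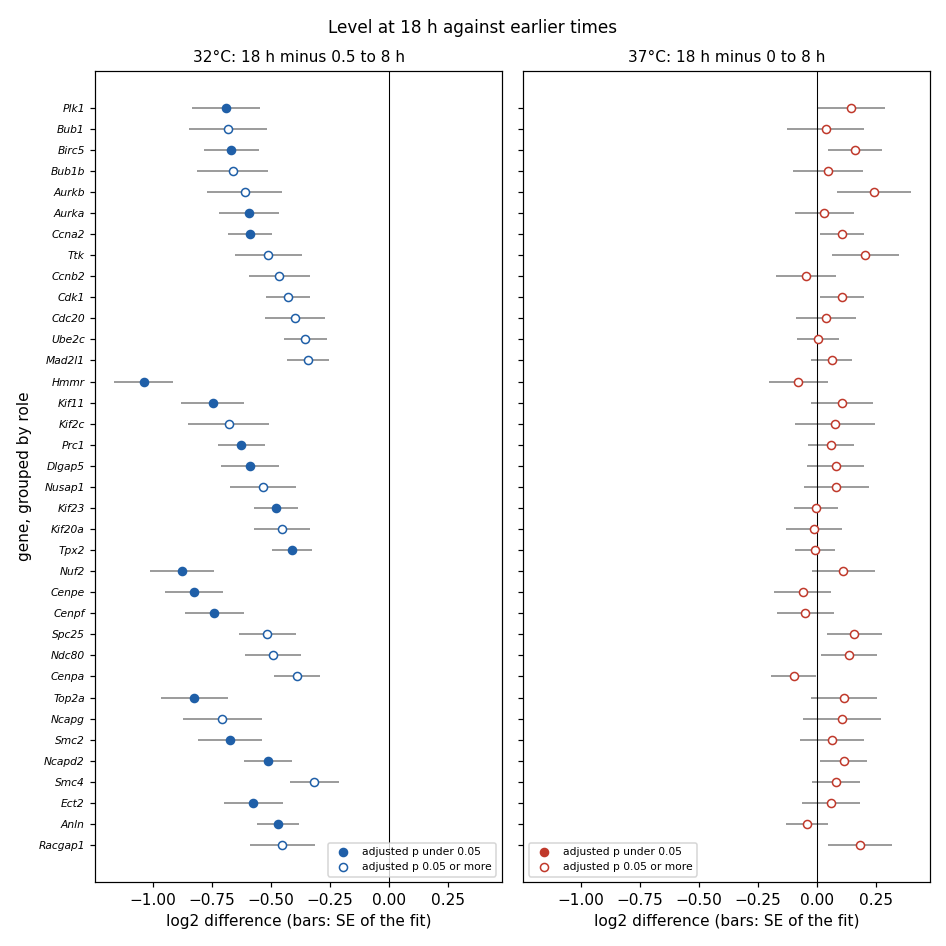
Difference in log2 level between 18 h and the earlier times (x axis) for each of the 36 genes (y axis, grouped by role), at 32°C on the left and 37°C on the right. Points are estimates and bars their SE from the fit, and filled points passed an adjusted p of 0.05. At 32°C all 36 points lie between −1.04 and −0.32 and 18 are filled, while at 37°C they lie between −0.10 and 0.24 and 0 are filled.

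At 37°C the same comparison called 0 of the 36 genes by limma, and 0% of all genes. At an unadjusted p of 0.05 by limma there were 0 of the 36, against 571 lower and 491 higher of all 19938 genes. The median estimate over the 36 genes was 0.07, from −0.10 (Cenpa) to 0.24 (Aurkb). It was below 0 for 9 of 36, against 9992 of all 19938 genes. At 37°C the mean level lay below that of 0 h at every later time, was lowest at 8 h and was partly back at 18 h. The 0 h array was the highest of the 7 at 37°C for 33 of 36 genes, against 13.3% of all genes. The mean change from 0 h was −0.16 at 0.5 h, −0.16 at 1 h, −0.18 at 2 h, −0.20 at 4 h, −0.37 at 8 h and −0.11 at 18 h. The 8 h array was the lowest of the 7 at 37°C for 34 of 36 genes, against 11.7% of all genes, and the 18 h level was above the 8 h level for 36 of 36, against 45.4% of all genes. At 32°C the mean change was −0.17 at 0.5 h, −0.14 at 1 h, −0.10 at 2 h, −0.21 at 4 h, −0.19 at 8 h and −0.74 at 18 h.

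Over the first 8 h the slope on the order of the 6 times was below 0 for 28 of 36 genes at 32°C (median −0.03 per step). It was below 0 for 9308 of all 19938 genes there. At 37°C it was below 0 for 36 of 36 (median −0.06 per step), against 8468 of all 19938 genes. No slope passed the test at 32°C (0 of 36 by limma, and 0.015% of all genes called in either direction), and 10 were lower at an unadjusted p of 0.05, against 7.47% of all genes. None passed at 37°C either (0 of 36 by limma, 0% of all genes called), and 28 were lower at an unadjusted p of 0.05, against 5.8% of all genes. That count of 28 became 14 without the 0 h array and 14 without the 8 h array. It was 26 to 32 without any 1 of the other times. With only genes above the median signal in the test, 6 passed at 37°C (1.55% of the genes tested), and with a prior variance that follows intensity, 4 did (0.647% of all genes). The differences between arrays of the same time, 32°C minus 37°C, were also fitted as a line on that order, held at 0 at 0 h. An even shift between the temperatures at all later times would also tilt this line, so it is not the difference of the slopes above. Its slope had a median of 0.02 and called 0 of 36 by limma, against 0.672% of all genes called in either direction. At an unadjusted p of 0.05 by limma, 7 were higher, against 1456 of all 19938 genes. Including 18 h turned the median slope to −0.03.

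Ranked over 0 to 18 h by Kendall's tau with an exact test, 11 of 36 genes fell in order at 32°C at an unadjusted p under 0.05, against 4.74% of all genes, and 5 of 36 did at 37°C, against 1.42%. Without 18 h, over 0 to 8 h only, the order of the temperatures turned round, with 3 of 36 falling at 32°C (1.75% of all genes) and 17 of 36 at 37°C (2.48% of all genes). Over 0 to 18 h at 32°C these were Ube2c, with a tau of −1, Ccna2, Racgap1, Aurkb, Bub1b, Ccnb2, Ect2, Kif20a, Prc1, Dlgap5 and Kif2c. Ube2c, the conjugating enzyme of the anaphase-promoting complex, had an exact p of 0.000397 and an adjusted p of 0.172. Over 0 to 18 h at 37°C they were Anln, Ccnb2, Bub1b, Kif20a and Ube2c. After adjustment over all genes none of the 36 passed at either temperature.

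Set against the 37°C array of the same time, the 36 genes had no called difference over the times before 18 h. At 18 h all were lower at 32°C, against 8790 of all 19938 genes. The mean of the 5 earlier differences, 32°C minus 37°C, called 0 of 36 genes (limma with the time as a block), against 0.00502% of all genes. At an unadjusted p of 0.05 by limma, 5 were higher and 0 lower, against 1337 higher and 1034 lower of all 19938 genes. The median of this mean over the 36 genes was 0.04, from −0.11 to 0.20. The highest, Bub1b of the spindle checkpoint, had an unadjusted p of 0.00150 and an adjusted p of 0.203 by limma. The median differences at 0.5, 1, 2, 4 and 8 h were −0.02, 0.02, 0.10, −0.01 and 0.17, and at 18 h −0.68. At 2 h 30 of the 36 genes were higher at 32°C, against 51.7% of all genes. At 8 h 32 of the 36 genes were higher at 32°C, against 47.5% of all genes, led by Cdc20 (0.55), Cenpa (0.41) and Plk1 (0.40), and the 4 others were Smc4, Smc2, Ube2c and Ncapg. As all 36 genes were lower at 18 h, so were the 32 that were higher at 8 h, a sequence seen in 14.7% of all genes.

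At 18 h itself 21 of 36 genes were lower at 32°C by 1.5-fold or more, against 1.94% of all genes, and 0 reached 2-fold. With 1 array on each side this has no test. Ncapg stood at 0.508 of its 37°C intensity, Top2a at 0.520, Hmmr at 0.527 and Kif11 at 0.545. At the other end Cenpa stood at 0.912, Cdc20 at 0.805 and Tpx2 at 0.780.

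**Figure D3:**
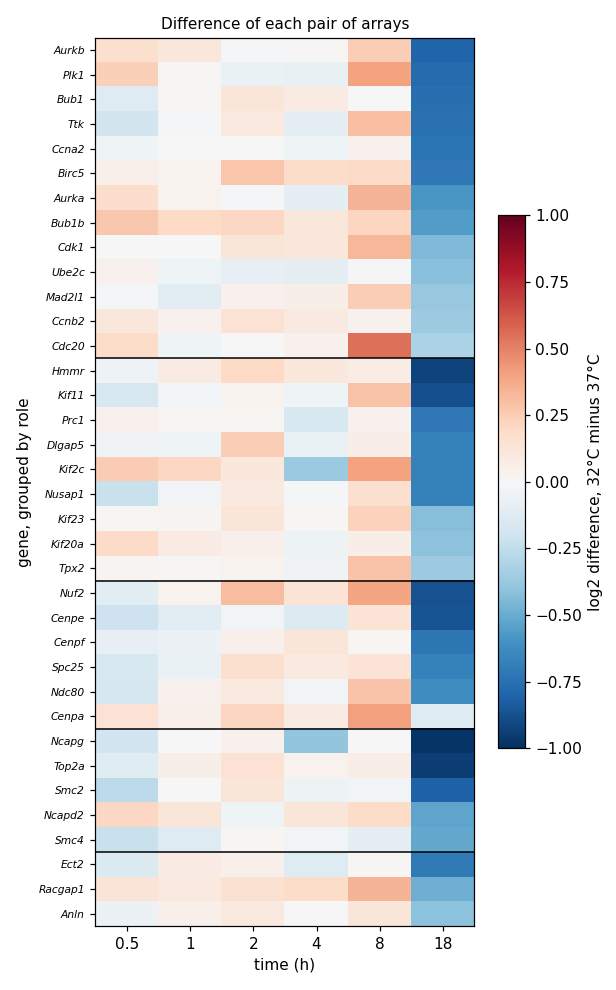
Log2 difference, 32°C minus 37°C, between the arrays of the same time (columns, in h) for each gene (rows, grouped by role and ordered by the 18 h difference). Blue is lower and red higher at 32°C. Differences at 18 h run from −0.98 (Ncapg) to −0.13 (Cenpa), and 32 genes are above 0 at 8 h.

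The 18 h difference was then set against the mean of the 5 earlier differences. All 36 estimates were below 0, with a median of −0.71, against 9172 of all 19938 genes below 0. Among the 36, 6 passed the test (limma with the time as a block), against 0.171% of all genes called lower. These were Hmmr, Top2a, Ccna2 and Birc5, which also passed the comparison with earlier times at 32°C, and Aurkb and Bub1b, which did not pass it. Hmmr had −1.01 ± 0.12 (SE, limma adjusted p = 0.0248) and Top2a −0.98 ± 0.13 (limma adjusted p = 0.0299). Aurkb, the kinase of the chromosomal passenger complex, had levels of 10.82, 10.70, 10.51, 10.52, 10.50 and 9.99 at 32°C and 10.80, 10.66, 10.59, 10.53, 10.50, 10.26 and 10.80 at 37°C, and its estimate was −0.90 (limma adjusted p = 0.0469). For Bub1b the levels were 9.44, 9.38, 9.31, 9.13, 9.10 and 8.61 at 32°C and 9.36, 9.18, 9.17, 9.10, 9.02, 8.89 and 9.17 at 37°C, with an estimate of −0.76 (limma adjusted p = 0.0469). Both genes were higher at 0.5 h at 32°C than at any later time there, and both were lowest of all at 18 h at 32°C. These calls rested on the earlier pairs in the fit. Leaving out 0.5 h gave 2 calls, against 18 of all 19938 genes called lower. Leaving out 1, 2 or 4 h gave 0, against 0, 3 and 4 of all genes. In those fits 36, 34 and 34 of the 36 genes were lower at an unadjusted p of 0.05 by limma. Leaving out 8 h gave 4 (70 of all genes), of which 3 (Aurkb, Hmmr and Top2a) were among the 6. There were 2 calls after quantile normalization (31 of all genes), 1 without the block (11) and 0 on relative ranks (0). On relative ranks the lowest adjusted p of the 36 was 0.0988, and 34 were lower at an unadjusted p of 0.05 (limma). With the mean of all transcript clusters of a gene there were 5 calls (33 of all genes), without Top2a (limma adjusted p = 0.581).

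Other genes of cell division were read in the comparison of 18 h with earlier times at 32°C. Of 69 further mitotic genes measured, 21 were lower (median −0.54), and the lowest p-values, not the largest differences, were those of Depdc1a (−0.92), the kinase Pbk (−1.01), the centromere protein Cenpi (−1.02) and Shcbp1 (−1.11). Of 21 regulators of mitotic transcription, 2 were lower, the activators Foxm1 (−0.72, limma adjusted p = 0.0226) and Mybl2 (−0.58, limma adjusted p = 0.0438), while Rbl1 (−0.48) and E2f8 (−0.63) missed the threshold. Foxm1 measured 9.51, 9.45, 9.24, 9.24, 9.32 and 8.64 at 32°C and 9.33, 9.45, 9.41, 9.30, 9.22, 9.12 and 9.28 at 37°C, so that it too was lowest at 18 h at 32°C. Of 51 DNA replication genes, 7 were lower (median −0.41), among them the nucleotide synthesis genes Rrm2 (−0.62) and Tyms (−0.52), the helicase subunit Mcm4 (−0.60) and Orc1 (−0.52).

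The lists of G1 cyclins and cell cycle inhibitors, of mitotic exit and of cohesin held fewer called genes than those above and had medians nearer 0. Of 22 G1 cyclins and cell cycle inhibitors 0 were called (limma, 5 lower at an unadjusted p of 0.05), with Wee1 (−0.38), Pkmyt1 (−0.38), Cdk6 (−0.37) and Btg2 (−0.61) nearest. Of 19 genes of mitotic exit and the anaphase-promoting complex 1 was lower, its inhibitor Fbxo5 (−1.03), and Ube2s (−0.33), Anapc13 (−0.33) and Anapc11 (−0.25) came next. Of 15 cohesin and constitutive chromosome genes 1 was lower, Esco2 (−1.03), which acetylates cohesin in S phase, ahead of Rad21 (−0.32), Smc1a (−0.31) and Wapl (−0.19). The medians of these 3 lists were −0.15, −0.08 and −0.13. At 37°C 0 genes of any of these lists were called (limma), and at an unadjusted p of 0.05 there were 0 lower. At that threshold 3 other mitotic genes, 6 DNA replication genes, 2 G1 cyclins or cell cycle inhibitors and 2 genes of mitotic exit were higher. Differences between the lists were not tested.

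**Figure D4:**
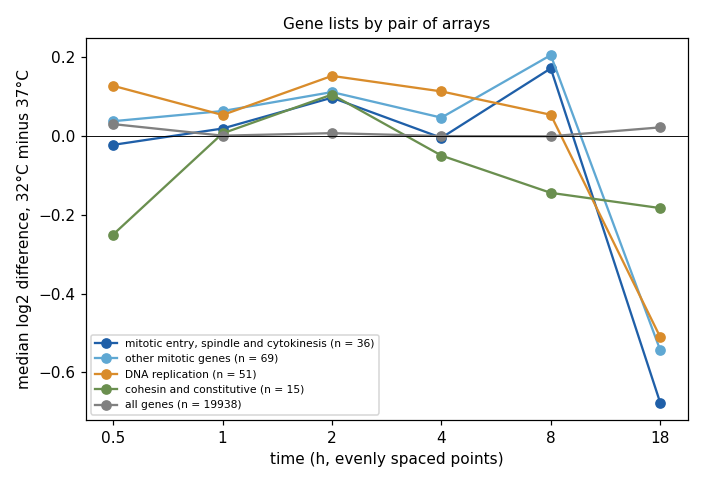
Median log2 difference, 32°C minus 37°C (y axis), between arrays of the same time (x axis, evenly spaced, in h) for the 36 genes, other mitotic genes, DNA replication genes, cohesin and constitutive chromosome genes, and all genes. At 18 h the medians are −0.68 for the 36 genes, −0.54 for other mitotic genes and −0.51 for DNA replication genes.

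Grouped by promoter letters, the genes had similar medians, given here as a description with no test. The 22 genes with TTTGAA within 50 bases of the start had a median difference of −0.55 at 18 h against earlier times at 32°C, the 8 with a window but without it −0.68, and the 6 with no window −0.52. Hmmr, with TTTGAA at +9, had the largest decline, and Nuf2 and Cenpe, in the group without it, had −0.88 and −0.83. That group was not free of the element, as Cenpe held TTTAAA at +15. Kif2c and Ncapd2, also in it, held TTTGAA further from the start, at −103 and −123.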

How the data were processed

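The deposited data are linear intensity values of 13 arrays, with 1 value for each transcript cluster. For the summarization and normalization of the probes, the method was not given in the sources used here. In the study, ranking by Kendall's tau used single probes, not analysed here. Values were log2 transformed without further scaling, as array medians differed by 0.05 log2. Of 28853 transcript clusters, 23410 were annotated, 1621 carried several genes and were left out, and 21789 carried 1 gene, of which 21698 matched by Entrez identifier and 91 kept the annotation's symbol. For 999 genes with several clusters the brightest was used, which gave 19938 genes.

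Tests were fitted over all genes with limma 3.58.1 in R 4.3.3 (lmFit and eBayes, 2-sided, Benjamini-Hochberg, threshold 0.05). Contrasts of 18 h assume that a lone array, or pair, varies as earlier ones do, so p-values measure the spread over arrays of different times, not over replicates. The fit was run on simulated data in which the 18 h arrays varied as the earlier ones did. That run could not test the assumption about the lone array. The number of arrays limits the precision. Levels on every array are given for the 2 genes of each role with the lowest p at 18 h at 32°C and the 1 with the highest, and for 4 genes with the lowest p in each other list estimates are given. Aurkb, Bub1b and Foxm1 were added after their values were seen. Genes and lists were chosen with earlier results of these data known. Alternatives were other normalizations, transcript cluster rules, filters, spreads, blocks, thresholds and leaving out each time.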

Additional observations from a re-analysis of the deposited data

Results flagged for a closer look

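In 6 genes the difference between 32°C and 37°C at 18 h departed from the mean of the earlier differences by a test of that departure (limma, adjusted over all genes). The estimates were −1.01 for Hmmr, −0.98 for Top2a, −0.90 for Aurkb, −0.76 for Bub1b, −0.73 for Ccna2 and −0.86 for Birc5, each lower at 32°C than at 37°C in the 1 pair of arrays at 18 h. Whether they belong to the time or to that pair of arrays cannot be told apart.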

How the results depend on the processing

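All 36 estimates for 18 h against earlier times at 32°C, and for the 18 h difference against earlier differences, stayed below 0 in every alternative fitted. For the comparison with earlier times at 32°C, leaving out a time or changing the spread could not alter this. The 18 h array at 32°C was the lowest of all 13 for each of the 36 genes. The 18 calls at 32°C (120 of all genes called lower) became 0 with the spread of the same temperature (1 of all genes). They ranged from 1 without 1 h (10 of all genes) to 31 without 8 h (380) when 1 time was left out. With the mean of all transcript clusters of a gene there were 17 (123), without Top2a. The 6 calls of the 18 h difference (34 of all genes called lower) became 2 after quantile normalization (31), 0 on relative ranks (0) and 1 with no block by time (11). With the mean of all transcript clusters of a gene they became 5 (33), without Top2a. When 1 time was left out they ranged from 0 without 1, 2 or 4 h (0, 3 and 4 of all genes) to 4 without 8 h (70). The trend over 0 to 8 h at 37°C called 6 genes among those above the median signal (1.55% of genes tested) and 4 with an intensity trend of the prior variance (0.647%). No gene was 2-fold lower at 18 h (0 of 36). Over 0 to 8 h only, Kendall's tau called 3 genes falling at 32°C (1.75% of all genes) and 17 at 37°C (2.48%). With 18 h included, the line fitted to the differences between temperatures, held at 0 at 0 h, had a median slope that reversed to −0.031. The causes were not tested. Other scalings moved the median of all genes by at most 0.02 log2.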
